A study of Mus musculus with 24 samples.

Results

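Eph receptors and ephrins were followed in the developing mouse cortex with and without CEP135, a protein of the centriole. The 10 genes examined here, of 54658 in the deposited table, were chosen by symbol: the receptors *Epha3*, *Epha4*, *Epha5*, *Epha7*, *Ephb1* and *Ephb2*, and the ligands *Efna5*, *Efnb1*, *Efnb2* and *Efnb3*. *Epha5* is also one of the neural genes that the study listed for its E11.5 cortices. Its difference there, and in any fit that includes those cortices, is therefore not independent evidence. Eph receptors form the largest family of receptor tyrosine kinases. Ephrins of class A are held in the membrane of a neighboring cell by a lipid anchor, and those of class B cross it, so the pair works where cells touch and can signal into both cells. In the developing cortex these proteins are known for sorting cells at boundaries, for guiding axons by repulsion, for the migration of newborn neurons and for the upkeep of progenitors at the ventricle.

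RNA was taken from the cortices of 12 embryos, with 1 library each. Letters name the E11.5 embryos, of which A, B and C were *Cep135*(Δ8/Δ8) mutants and D, E and F *Cep135*(+/+) controls, and numbers name the E14.5 embryos, of which 1, 2 and 6 were mutants and 3, 4 and 5 controls. The mutation is a small germline deletion in the second exon, carried by every cell of the embryo, and the labels call these samples null. Cells of the same 6 E14.5 embryos were dissociated with papain and kept in suspension with EGF and FGF2, which gave 6 incipient neurosphere libraries at 12 hours and 6 at 24 hours, for 24 libraries in all. The titles of the E14.5 embryos share 1 prefix, those of A and D have a different one, and those of B, C, E and F have again another, though the sample descriptions and data columns of B and C carry a prefix of their own. What a prefix stands for is not given in the sources used here, and age and prefix cannot be told apart. One label of the cortex of mutant 6 reads E11.5, but its title and source read E14.5, which was used.

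The 23 libraries for which whole reads could be recovered held a median of 8146517 reads on genes, and between 4732781 and 11645213. Reads came from the 3′ ends of transcripts, and the deposited values are counts divided by 1 size factor per library, here called normalized read counts. Between 6.11% and 34.8% of the normalized reads came from *Gm42418*, whose sequence is ribosomal. *Xist* and transcripts of the Y chromosome showed that 5 embryos (A, C, E, 1 and 2) were female and 7 male. *Cep135* itself did not check the genotypes, because its 3′ reads do not cover the deletion, and its log2 fold change was -0.12 ± 0.16 (SE) at E11.5 and 0.14 ± 0.22 at E14.5. Every gene of the lists for apical progenitors, intermediate progenitors and postmitotic neurons was read in at least 1 library of every group. Genes of the ventral telencephalon were read in the cortices too, with a summed normalized read count of 980 to 1674 at E11.5 and 2308 to 2989 at E14.5.

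All 10 genes had a mean of at least 10 in each comparison and were tested in all of them. Their positions are those of GENCODE vM21 on GRCm38, and all are protein coding. *Epha5* (ENSMUSG00000029245) lies on the minus strand of chromosome 5 from 84054761 to 84417382, on the same chromosome as *Cep135* (ENSMUSG00000036403, plus strand, 76588698 to 76646466). *Epha4* (ENSMUSG00000026235) lies on the minus strand of chromosome 1 from 77367185 to 77515088. *Efnb2* (ENSMUSG00000001300) lies on the minus strand of chromosome 8 from 8617434 to 8661242, and *Efnb1* (ENSMUSG00000031217) on the plus strand of chromosome X from 99136130 to 99148991. Promoter sequences in RefSeq (GRCm38.p6), from 250 bases before to 50 bases after the start, were matched for 9 of the 10 genes. The promoters of *Epha5* and *Efnb2* are shown because these 2 genes rose with age and again in culture, as described below, and capitals mark CG dinucleotides. Both lie on the minus strand, at chr5:84417333-84417632 and chr8:8661193-8661492.
Epha5: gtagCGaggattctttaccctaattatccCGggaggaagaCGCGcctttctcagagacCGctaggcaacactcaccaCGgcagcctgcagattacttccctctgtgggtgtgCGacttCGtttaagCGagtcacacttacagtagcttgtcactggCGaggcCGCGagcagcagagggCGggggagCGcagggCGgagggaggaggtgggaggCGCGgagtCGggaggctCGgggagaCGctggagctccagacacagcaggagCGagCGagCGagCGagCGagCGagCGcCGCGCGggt
Efnb2: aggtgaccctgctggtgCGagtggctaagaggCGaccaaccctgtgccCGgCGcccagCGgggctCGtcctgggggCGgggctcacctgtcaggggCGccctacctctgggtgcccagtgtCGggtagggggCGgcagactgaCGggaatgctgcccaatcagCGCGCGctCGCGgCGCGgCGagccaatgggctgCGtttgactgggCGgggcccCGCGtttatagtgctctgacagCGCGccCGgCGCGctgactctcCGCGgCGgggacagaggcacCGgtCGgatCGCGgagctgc
They hold 30 and 35 CG dinucleotides. Among the 9 matched genes the number ran from 14 in *Ephb1* and *Efnb1* to 38 in *Efna5*, against a median of 7 over 32851 promoters of the same length, of which 36.3% held at least 14. The E-box sequences CAGCTG and CAGATG, searched on both strands, were in 0 of the 9 promoters, and in 16.3% and 17.2% of all promoters.

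**Figure D1:**
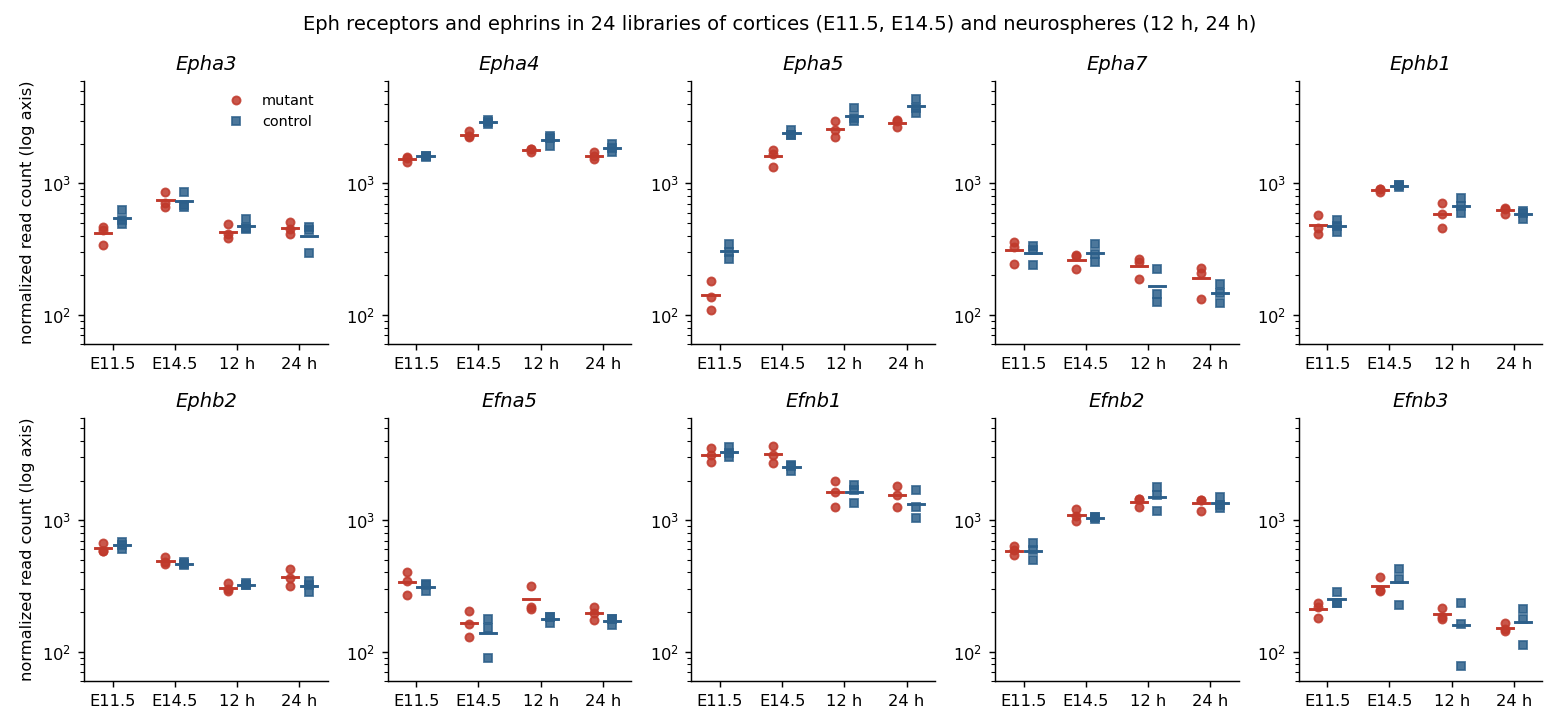
Normalized read count (log axis) of each of the 10 genes in cortices at E11.5 and E14.5 and in neurospheres at 12 and 24 hours, with 1 point per library and a bar at the mean of 3 libraries, mutants as red circles and controls as blue squares. *Epha5* rises from 110 to 348 at E11.5 to between 1338 and 2566 at E14.5 and lies lower in all mutants than in all controls of each sample type, while *Efnb1* is lower in culture than in cortex.

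The first comparison was of *Cep135*(Δ8/Δ8) with *Cep135*(+/+) samples. *Epha5*, a receptor of the class that binds ephrin-A ligands on axons, was the only one of the 10 genes to pass the test in any comparison of genotypes. In E11.5 cortices mutants A, B and C had 110, 183 and 136 normalized reads of it, and controls D, E and F had 265, 299 and 348. In E14.5 cortices mutants 1, 2 and 6 had 1800, 1338 and 1675, and controls 3, 4 and 5 had 2566, 2333 and 2335. All mutants lay below all controls at both ages, with a mean in mutants of 0.470 of the control mean at E11.5 and 0.665 at E14.5. The log2 fold change was -1.11 ± 0.19 (SE, n = 3 against 3) at E11.5 (adjusted p = 0.197 from limma). It was -0.60 ± 0.14 at E14.5 (adjusted p = 0.282 from limma), and neither passed the threshold of 0.05. It did pass at E11.5 with no filter on low values (adjusted p = 0.0145 from limma) and without mutant B (0.0419). It also passed there in 1 fit of all 24 libraries (adjusted p = 0.00139 from limma), which had no term for embryo. At E14.5 it passed by DESeq2 (adjusted p = 0.0286), though not by edgeR. Over all genes these E11.5 settings called 17 of 27879, 8 of 13396 and 8 of 13678, against 2 of 13406 in the main fit. At E14.5 DESeq2 called 64 of 13583, against 10 by limma and 9 by edgeR. In the fit of all 12 cortices with age as a term *Epha5* fell by 0.85 on the log2 scale, with a standard error of 0.13 and an adjusted p of 0.0152 from limma. Of 13650 genes, 0.139% were called in that fit, and 1 of the 10 genes was. The exact permutation test, two-sided and with labels permuted within age, gave p = 0.005, the smallest it can give, and 0.250 after Benjamini-Hochberg adjustment over 50 such tests. The lack of overlap at both ages fixes that p, so the test adds nothing to it. Ranked by p among genes with lower levels in mutants, *Epha5* was number 2 of 6482 in the 12 cortices, 5 of 6319 at E11.5 and 27 of 6556 at E14.5.

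Values of *Epha5* by title prefix and by sex rest on as few as 1 library of a genotype, and were not tested within these groups. Under the prefix of A and D the values were 110 in the mutant and 265 in the control, and under the title prefix of the other E11.5 embryos 183 and 136 against 299 and 348. The latter is no comparison within 1 prefix if the descriptions of mutants B and C are right. Among E11.5 females, mutants A and C had 110 and 136 and control E had 299, and among males mutant B had 183 and controls D and F had 265 and 348. At E14.5 the controls were all male, and male mutant 6 had 1675 against 2333 to 2566 in them. With a term for embryo sex the log2 fold change over the 12 cortices was -0.77 and the call was lost (adjusted p = 0.242 from limma). It was also lost without E11.5 mutant C (-0.82, adjusted p = 0.053) and without E14.5 mutant 2 (-0.82, adjusted p = 0.0658 from limma).

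In culture *Epha5* remained lower in the mutants, by a smaller log2 fold change than in the cortices, and was not called. At 12 hours mutants 1, 2 and 6 had 2960, 2250 and 2525 normalized reads, against 3121, 3713 and 2964 for controls 3, 4 and 5. By 24 hours the mutants had 3032, 2694 and 2980, against 3442, 4405 and 3741 for the controls. The groups did not overlap at either time, although at 12 hours mutant 1, at 2960, and control 5, at 2964, were close. The log2 fold change was -0.34 ± 0.15 (adjusted p = 0.913 from limma) at 12 hours and -0.41 ± 0.12 (adjusted p = 0.206 from limma) at 24 hours. These are the same 6 embryos as the E14.5 cortices and not further animals. At 24 hours the *Gm42418* share was 20.5% to 23.0% in mutants and 6.26% to 13.9% in controls, and the reads per library were 7903426 to 11645213 and 4732781 to 5709443. In cortices that share was 12.3% to 16.7% in mutants and 6.11% to 12.8% in controls at E11.5. It was 10.9% to 15.0% and 9.78% to 14.8% at E14.5. The part of share and depth in the results was not tested. The genotype effect on *Epha5* did not pass a test of a difference between ages (0.51 ± 0.24, E14.5 minus E11.5, unadjusted p = 0.0518, adjusted p = 0.62 from limma). Nor did it between 12-hour culture and E14.5 cortex (0.25 ± 0.21, adjusted p = 0.796 from limma), and 24-hour cultures were not tested against cortex.

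Other cell type markers moved with genotype beside *Epha5*. The summed normalized read count of 10 genes of postmitotic neurons was 40120 to 41676 in mutants and 50481 to 53736 in controls at E14.5, and 36556 to 43660 and 45717 to 54319 at 24 hours. At 24 hours the apical progenitor list went the other way, at 12079 to 13277 in mutants and 9389 to 10593 in controls, with 4 of 8 genes at an unadjusted p under 0.05 and 0 called. The lists of intermediate progenitors (1637 to 1921 against 1428 to 1608) and of meninges and mesenchyme (242 to 292 against 150 to 184) were also higher in those mutants. At E11.5 the neuron list summed to 10961 to 12179 in mutants and 11181 to 16375 in controls. The apical progenitor list there was at 14385 to 15951 in mutants and 15891 to 18131 in controls. All 8 apical genes and 5 of 6 intermediate progenitor genes were lower in E11.5 mutants, with 0 called. At E14.5 6 of the 8 apical genes were higher in mutants and at 12 hours all 8 were, with 0 called. All 10 neuron genes were lower in mutants in the 12 cortices, with a median log2 fold change of -0.34 against 0.01 over all genes, and 1 of them, *Neurod2*, was called. Within sample types all 10 were lower at E11.5, E14.5 and 24 hours, and 9 at 12 hours. Of these genes 1 was called at E14.5 and 1 at 24 hours, against 0 at E11.5 and at 12 hours. As a share of the neuron sum, *Epha5* was 1.0% to 1.5% in mutants and 1.8% to 2.7% in controls at E11.5. This share was 3.34% to 4.35% in mutants and 4.34% to 4.98% in controls at E14.5, where the ranges met. It overlapped in culture, with 5.4% to 7.0% against 5.38% to 8.66% at 12 hours and 6.94% to 7.37% against 6.34% to 9.64% at 24 hours. In bulk tissue, fewer cells of a type and less RNA per cell cannot be told apart. At E11.5 the ventral telencephalon list summed to 980 to 1210 in mutants and 1417 to 1674 in controls, and the endothelium list to 1606 to 1706 and 1420 to 1526. Liver genes without *Ttr*, which marks choroid plexus as well, summed to 77.0 to 870 in E11.5 mutants and 45.3 to 51.0 in controls. At E14.5 they were at 58.7 to 83.9 in mutants, 64.7 in control 3, and 1081 and 1082 in controls 4 and 5, which stood apart. The normalized reads of *Epha5* in these E14.5 cortices were 2566 in control 3, 2333 and 2335 in controls 4 and 5, and 1338 to 1800 in mutants. At 24 hours the liver genes summed to 121 to 402 in mutants and 11.3 to 27.0 in controls, and 3 genes of the liver list were called higher. The microglia list at E14.5 summed to 745 to 943 in mutants and 401 to 466 in controls, and 1 of its 6 genes, *Cx3cr1*, was called there. The part of these lists in the level of *Epha5* was not tested beyond the share given.

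**Figure D2:**
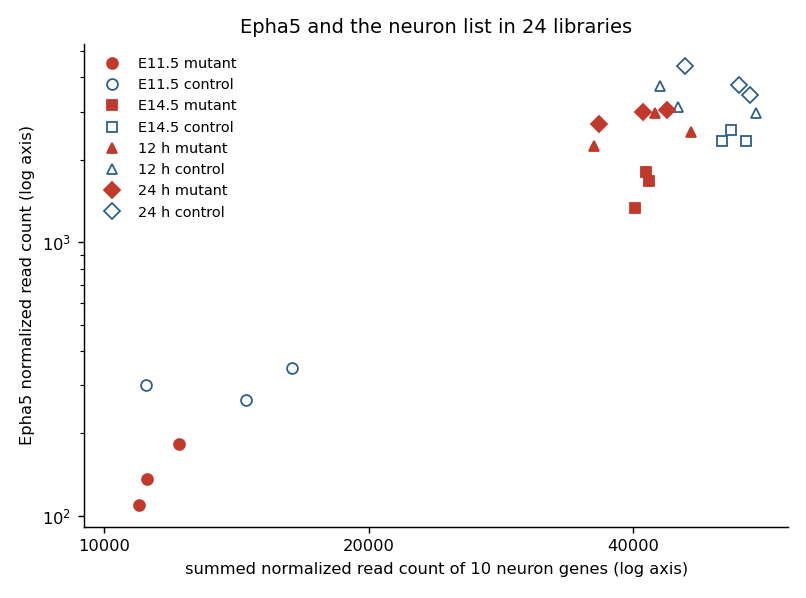
Normalized read count of *Epha5* against the summed normalized read count of 10 neuron genes in each of 24 libraries (both axes on a log scale), with mutants filled in red, controls open in blue, and a marker shape for each sample type. At E11.5 the mutants reach 183 and the controls start at 265. The neuron sum of control E (299) is within the range of those mutants and the sums of controls D and F are above it. At E14.5 the mutants are lower on both axes.

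*Epha5* begins 7828684 bases, or 7.83 Mb, from the start of *Cep135*, so the level of its neighbors was examined in the 12 cortices. Between the 2 genes 13 others were tested, 10 lower and 3 higher in mutants, with log2 fold changes from -0.54 to 0.22 and a median of -0.03. Of these 0 were called by limma and 1 had an unadjusted p under 0.05. Among the 20 tested genes nearest to *Epha5*, 10 were lower and 10 higher in mutants, 0 were called, and 3 had an unadjusted p under 0.05, a share of 15.0% against 8.71% of all genes. The next tested gene toward *Cep135*, *Rpl7-ps7* at 2.08 Mb, had a log2 fold change of -0.03 (adjusted p = 0.975 from limma). *Epha5* had the smallest p of the 930 tested genes of chromosome 5. A sequence variant near *Epha5* that is inherited with the *Cep135* deletion cannot be told apart from loss of CEP135 by these levels. Linkage was not tested.

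**Figure D3:**
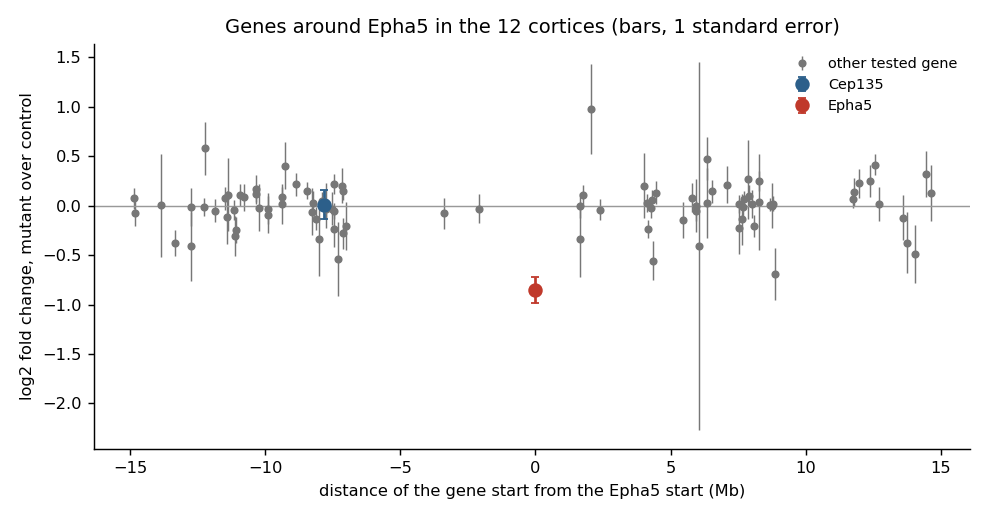
Log2 fold change of mutants over controls in the 12 cortices, with bars of 1 standard error, for tested genes within 15 Mb of the *Epha5* start, by distance of the gene start in Mb, with *Epha5* in red and *Cep135* in blue. *Epha5* lies at -0.85 (SE 0.13), *Ccng2*, 8.85 Mb away, at -0.69 (SE 0.26) with a bar that meets its own, and the 13 genes between it and *Cep135* lie between -0.54 and 0.22.

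*Epha4*, which binds ephrins of both classes and is known for keeping corticospinal axons from crossing the midline, was lower in mutants by less than *Epha5*. At E14.5 it was at 2240, 2277 and 2503 in mutants 1, 2 and 6 and at 2809, 3023 and 2928 in controls 3, 4 and 5. The 12-hour mutants had 1721, 1836 and 1821 and the controls 1911, 2196 and 2304, and the 24-hour values were 1735, 1533 and 1615 against 1864, 1742 and 1980. The groups did not overlap in any of these 3 sample types, though at 24 hours the highest mutant, at 1735, was close to the lowest control, at 1742. At E11.5 the values of 1593, 1463 and 1573 in mutants overlapped 1625, 1586 and 1614 in controls. Its log2 fold change was -0.06 ± 0.09 in E11.5 cortices and -0.32 ± 0.12 in E14.5 cortices, then -0.25 ± 0.14 in 12-hour and -0.19 ± 0.12 in 24-hour cultures. Over the 12 cortices it was -0.19 ± 0.07 (adjusted p = 0.463 from limma). In none of them did it pass.

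Of the other receptors, *Epha3* stood apart at E11.5, with 342, 470 and 444 in mutants against 527, 490 and 632 in controls and a log2 fold change of -0.40 ± 0.15 (adjusted p = 0.627 from limma). Its E14.5 values overlapped fully, at 859, 666 and 707 against 658, 690 and 862. *Ephb1*, which guides axons of the retina at the optic chiasm, was slightly lower in E14.5 mutants, at 908, 904 and 861 against 933, 968 and 972 (-0.11 ± 0.12, adjusted p = 0.792 from limma). *Epha7* had overlapping groups in every sample type, from -0.17 ± 0.17 at E14.5 to 0.53 ± 0.28 at 12 hours, and the difference between these effects did not pass (0.69 ± 0.32, unadjusted p = 0.0479, adjusted p = 0.793 from limma). *Ephb2*, a receptor for the class B ephrins, changed by -0.09 ± 0.11 at E11.5 and 0.07 ± 0.13 at E14.5, with groups that overlapped.

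Among the ligands, *Efnb1*, which is made by progenitors of the ventricular zone, was higher in E14.5 mutants, at 3674, 3134 and 2733 against 2352, 2580 and 2625 in controls. That log2 fold change of 0.33 ± 0.14 did not pass (adjusted p = 0.519 from limma). *Efnb1* is on the X chromosome, mutants 1 and 2 are female and the other 4 embryos male, and with a term for sex the value was 0.12 (adjusted p = 0.874 from limma). At E11.5 the groups overlapped with -0.07 ± 0.12. The difference between the ages was 0.40 ± 0.18 (unadjusted p = 0.0457, adjusted p = 0.62 from limma). *Efna5*, the class A ligand that *Epha5* binds, was higher in 12-hour mutants, at 220, 316 and 212 against 182, 184 and 164 (0.47 ± 0.24, adjusted p = 0.913 from limma), and its groups overlapped in the other 3 sample types. *Efnb3*, a ligand of the midline that acts as a barrier to axons, was lower in E11.5 mutants by values that nearly touched, at 234, 182 and 217 against 285, 236 and 235 (-0.26 ± 0.15). *Efnb2* had close means, with 588 against 586 at E11.5 and 1095 against 1045 at E14.5, and its groups overlapped in all 4 sample types.

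Counted over the 10 genes, the groups did not overlap for 3 genes at E11.5 (all lower in mutants), 4 at E14.5 (3 lower), 3 at 12 hours (2 lower) and 2 at 24 hours (both lower). Over all tested genes the share without overlap was 13.3%, 13.7%, 11.0% and 16.2%. With 3 embryos against 3 the exact permutation test cannot give less than p = 0.1, which each of those genes had. By limma 0 of the 10 were called in each of these 4 comparisons, and the number with an unadjusted p under 0.05 was 2 in E11.5 cortices, 3 in E14.5 cortices and 1 in the cultures of each time. The share of all genes called was 0.0149% for E11.5 cortices, 0.0736% for E14.5 cortices and 0.271% for 24-hour cultures. It was 0.0% for 12-hour cultures, where 650 genes had an unadjusted p under 0.05. In the 12 cortices *Epha5* alone did not overlap within both ages, against 1.33% of all genes. Of the tests for a difference of the genotype effect between ages, between culture and cortex and between culture times, 0 of the 10 genes passed any, and 0.0% of all genes did in each, with 1070, 724 and 318 genes at an unadjusted p under 0.05. The median log2 fold change of the 10 genes over the 12 cortices was -0.04, against 0.01 for all genes.

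**Figure D4:**
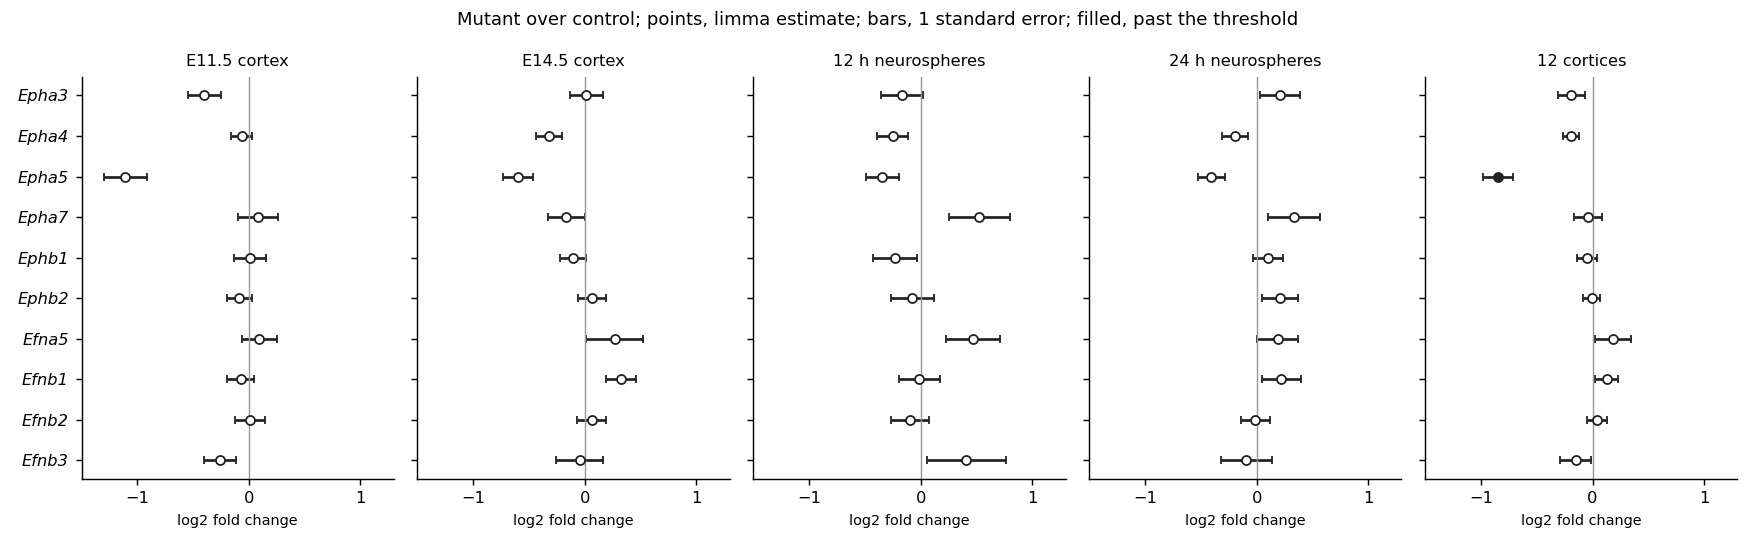
Log2 fold change of mutants over controls for each of the 10 genes in the 4 sample types and over all 12 cortices, as limma estimates with bars of 1 standard error, filled where the adjusted p is under 0.05. Only *Epha5* in the 12 cortices (-0.85) is filled, and it is below 0 in all 5 panels.

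The rest of the pathway showed no called difference between genotypes. Of the 12 other Eph and ephrin genes in the table, 7 averaged 10 or more normalized reads, and 0 were called in any comparison of genotypes. In culture *Ephb3* was lower in mutants without overlap, at 126 to 175 against 184 to 207 at 12 hours and 129 to 179 against 180 to 229 at 24 hours. *Ephb4* was higher without overlap, at 21.4 to 48.4 against 3.15 to 18.8 and then 18.2 to 42.3 against 3.37 to 15.0. Over all genes 11.0% and 16.2% did not overlap at these times. *Epha1*, *Epha2*, *Epha6*, *Epha8* and *Epha10* were under that mean, with at most 27.1 normalized reads in any library. A list of 38 genes that act with these receptors (among them guanine nucleotide exchange factors, Src family kinases, phosphatases and the protease ADAM10) had 0 called in each genotype comparison, with a median log2 fold change over the 12 cortices of -0.02 and 3 genes at an unadjusted p under 0.05.

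The second comparison was of E14.5 with E11.5 cortices, with genotype as a term. Most of the 10 genes changed, as did 53.1% of all genes tested: 6 rose, 2 fell and 2 did not pass. *Epha5* had the largest of these changes, from a mean of 224 ± 95.1 (SD, n = 6) to 2008 ± 475, or 8.98-fold, a log2 fold change of 3.24 ± 0.13 (adjusted p = 3.06e-11 from limma). The ages did not meet, since the highest E11.5 value was 348 and the lowest E14.5 value 1338. *Ephb1* rose from 480 to 924 (0.95 ± 0.09), *Epha4* from 1576 to 2630 (0.73 ± 0.07) and *Epha3* from 484 to 740 (0.63 ± 0.12). For each of these receptors all E14.5 cortices lay above all E11.5 cortices. *Ephb2* fell from 628 to 479 (-0.39 ± 0.08), also without overlap, and *Epha7* was at 303 and 279 (-0.11 ± 0.13, adjusted p = 0.484 from limma).

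The ligands did not share 1 direction with age. *Efna5* fell from 325 ± 46.2 to 152 ± 39.3, a log2 fold change of -1.13 ± 0.16 (adjusted p = 2.16e-05 from limma), with values of 268 to 401 at E11.5 and 89.8 to 203 at E14.5. *Efnb2*, best known as the ephrin of arteries and also present in neural cells, rose from 587 to 1070 (0.87 ± 0.09), with 494 to 675 at E11.5 and 981 to 1225 at E14.5. *Efnb3* rose from 231 to 326 (0.48 ± 0.14, adjusted p = 0.00837 from limma) with overlapping values. *Efnb1* was at 3212 and 2850 (-0.18 ± 0.10, adjusted p = 0.149 from limma). Of 8 other family genes tested in the cortices, 3 rose and 4 fell. *Efna3* (1.65), *Epha8* (2.01, from means of 5.04 and 17.3) and *Ephb6* (0.96) rose, and *Ephb4*, the endothelial receptor of EFNB2, fell by 1.42, *Ephb3* by 0.82, *Efna4* by 0.60 and *Efna2* by 0.49 on the log2 scale.

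Of the 38 signalling genes 11 rose and 5 fell with age, with a median of 0.06 against -0.08 over all genes. Those that rose included *Ptpro* (2.12 ± 0.14), a phosphatase that acts on Eph receptors, *Ngef* (1.65 ± 0.25), the exchange factor ephexin that acts after EphA receptors, *Kalrn* (1.02 ± 0.09), which acts after EphB receptors in spines, and *Fyn* (0.83 ± 0.08), a Src family kinase. *Inppl1*, the lipid phosphatase SHIP2, fell by 1.10 (SE 0.10), and *Abl1* by 0.65 (SE 0.12). Beside these changes all 10 neuron genes rose, with a median of 1.79, and 6 of 8 apical progenitor genes fell, with a median of -0.68. Of 7 genes of meninges and mesenchyme 5 fell, with a median of -1.49, and of 8 endothelial genes 5 fell. The part of cell composition in the levels of the 10 genes was not tested.

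The third comparison was of neurospheres with the cortex they came from. All 10 genes passed the test at 12 hours, where 30.2% of all genes were called: 3 rose and 7 fell. The calls of *Epha7* and *Efna5* did not hold when single libraries were left out, and those of the other 8 did in each of the 12 such fits. *Epha5* rose from 2008 to 2922 (0.56 ± 0.10, adjusted p = 0.000915 from limma) and was higher in the culture of each of the 6 embryos, by 0.28 to 0.75 on the log2 scale. *Efnb2* rose in 6 of 6 embryos from 1070 to 1443 (0.42 ± 0.11, adjusted p = 0.00719 from limma), and *Efna5* in 6 of 6 from 152 to 213 (0.50 ± 0.18, adjusted p = 0.0457 from limma). *Epha5* and *Efnb2* were thus the 2 genes that rose both with age and in culture, while *Efna5* fell with age and was higher in culture.

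*Efnb1* fell in 6 of 6 embryos by 0.47 to 1.16, from a mean of 2850 to 1635 (-0.80 ± 0.13). *Epha3* fell from 740 to 453 (-0.71 ± 0.11), *Ephb2* from 479 to 316 (-0.60 ± 0.09), *Ephb1* from 924 to 632 (-0.57 ± 0.11) and *Epha4* from 2630 to 1965 (-0.42 ± 0.08), each in 6 of 6 embryos. *Efnb3* fell from 326 to 175 (-0.94 ± 0.23, adjusted p = 0.0055 from limma) in 5 of 6 embryos, with control 4 the lowest culture at 77.5. *Epha7* fell from 279 to 200 (-0.52 ± 0.18, adjusted p = 0.0376 from limma) in 5 of 6 embryos. The calls of *Epha7* and *Efna5* were near the threshold, and each was lost without a filter on low values (adjusted p = 0.0558 and 0.0701 from limma). With 1 of 12 libraries left out, that of *Epha7* was lost in 8 fits (adjusted p up to 0.0983 from limma) and that of *Efna5* in 9 (up to 0.109), and all 10 genes passed only without the 12-hour culture of mutant 6.

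Of the other family genes 1 rose, *Ephb3* (0.53 ± 0.19), and 5 fell, of 8 tested. *Epha8* and *Efna1* fell by 2.59 and 2.51 on the log2 scale, from means of 17.3 and 20.4 to 3.42 and 4.01, and *Efna2*, *Ephb6* and *Efna4* by 0.66, 0.67 and 0.62. Of the 38 signalling genes 13 rose and 2 fell, with a median of 0.17 against -0.06 over all genes. *Vav3*, an exchange factor that Eph receptors recruit, rose by 1.99 ± 0.24, and *Kalrn*, which had also risen with age, by 0.59 ± 0.10. *Arhgef15*, an exchange factor found in vessels, fell by 1.81 (SE 0.53), and *Adam10*, the protease that cuts ephrins from the cell, by 0.32 (SE 0.11). In the same libraries 8 of 8 endothelial, 7 of 7 meningeal and 6 of 6 microglial genes fell, with medians of -4.01, -3.67 and -4.54. Of 8 apical progenitor genes 6 fell, with a median of -0.95, and of 10 neuron genes 2 fell, with a median of -0.02. The summed microglia list in culture was 6.31 to 61.3. Whether these cells account for any of the changes was not tested.

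Between 12 and 24 hours 0 of the 10 genes passed the test by limma, with 2 at an unadjusted p under 0.05, and 0.292% of all genes were called. *Epha5* was higher at 24 hours in the cultures of 6 of 6 embryos, by 0.03 to 0.34, with a log2 fold change of 0.21 ± 0.09 (adjusted p = 0.472 from limma). *Efnb1* was lower in 6 of 6 embryos, by 0.02 to 0.70 (-0.19 ± 0.14, adjusted p = 0.707 from limma). The block of embryos, which pairs libraries of the same animal, kept the count of called genes at 10 for culture against cortex and at 0 between culture times.

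**Figure D5:**
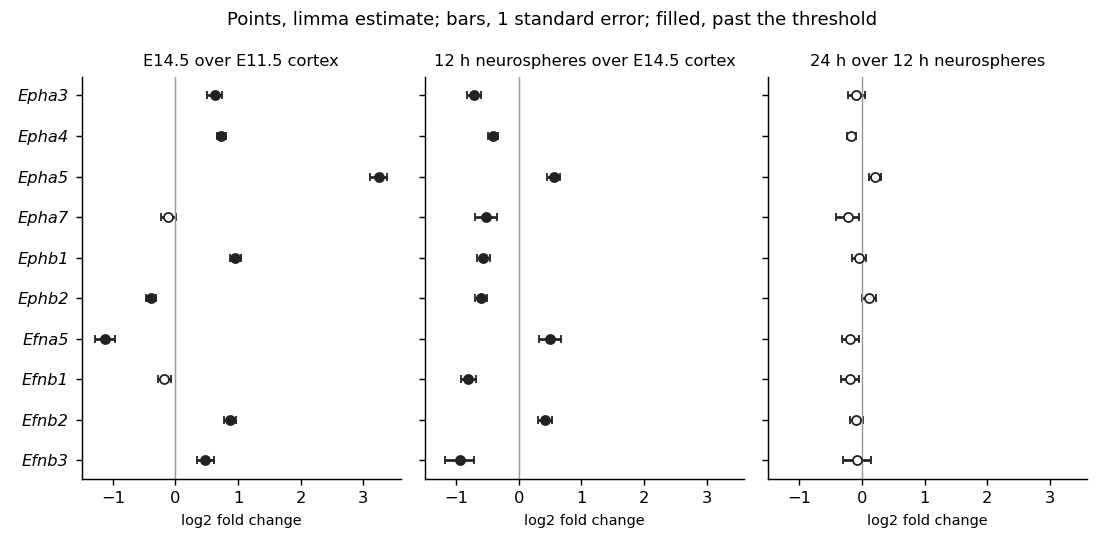
Log2 fold change of each of the 10 genes for E14.5 over E11.5 cortex, 12-hour neurospheres over E14.5 cortex and 24-hour over 12-hour neurospheres, as limma estimates with bars of 1 standard error, filled where the adjusted p is under 0.05. *Epha5* (3.24, then 0.56) and *Efnb2* (0.87, then 0.42) lie above 0 in the first and second panels, and no point is filled in the third.

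Ordered by mean over the 8 groups, *Epha5* was highest in 24-hour controls, at 3863 ± 493 (SD, n = 3), followed by 12-hour controls (3266), 24-hour mutants (2902), 12-hour mutants (2578), E14.5 controls (2411), E14.5 mutants (1604), E11.5 controls (304) and E11.5 mutants (143). The 3 steps from E14.5 controls downward were between groups that did not overlap, and the 4 steps above them were between groups that did. *Epha4* was highest in E14.5 controls, at 2920 ± 107, apart from the next group, E14.5 mutants at 2340 ± 142, and its other neighbors in order overlapped. For *Epha7* and *Efna5* 0 of the 7 steps were between groups without overlap.

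Over the 24 libraries the log2 levels of *Epha5* and *Efnb2* had a Pearson r of 0.931, the highest among pairs of the 10 genes, followed by *Efnb1* with *Ephb2* (0.829) and *Ephb1* with *Epha4* (0.813). These are descriptions, since libraries share embryos and fall into cortices and cultures. Of 13678 genes, the patterns most like that of *Epha5* were those of *Celf2* and *Myt1l* (r = 0.990 each), an RNA-binding protein and a transcription factor of neurons, and of the glutamate receptor gene *Gria1* (0.987). For *Efnb1* they were *Sfrp1* (0.962), *Hmgn2* (0.962) and *Stx17* (0.960), and for *Ephb2* they were *Igfbp5* (0.967), *Gltp* (0.954) and *Hes5* (0.953). Nearest to *Epha3* were *Ccnd2* (0.865) and *Eomes* (0.850), the cyclin D2 gene and a marker of intermediate progenitors, and nearest to *Efnb2* was *Tnik* (0.974).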

How the data were processed

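RNA of 24 libraries was analyzed. The authors prepared stranded 3′ libraries, aligned reads to GRCm38 with TopHat (version 2.0.10, Bowtie 1.0.0, SAMtools 0.1.19) and counted them per gene with HTSeq (0.6.1) on GENCODE vM20. The authors deposited 1 table of signal, which holds read counts divided by 1 size factor per library, with replicates kept apart. Whole reads were recovered, within 0.001 of a read, for 100.0% of values in 23 libraries. In E11.5 control D 1 read is worth nearly 1, so edgeR (4.0.16) and DESeq2 (1.42.0), as alternatives, were run on comparisons without it.

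The test was limma (3.58.1, in R 4.3.3) with a mean-variance trend on log2(value + 1). Genes averaging 10 or more in the libraries of a fit entered it, tests were two-sided, and p was adjusted over all of them by Benjamini-Hochberg, with a threshold of 0.05. A fold change on this scale understates that of low genes. Genotypes were compared within each of the 4 sample types and over 12 cortices in a model with age. Age, culture and culture time were tested with genotype as a term, and interactions in the same libraries. The steps were run on simulated counts with 1 dispersion for every gene and no difference between ages. That setting is unlike these data, so it does not measure the error of the tests here. Single values were also given exact permutation tests. In fits within a sample type or over the 12 cortices, p-values measure the spread between embryos, which number 3 per group. The main fits of culture and culture time, and their interactions with genotype, took libraries of the same embryo as independent. For these a fit with the embryo as a block was an alternative.

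Positions came from GENCODE vM21 and promoters from RefSeq. The genes described are the 10 members in each comparison, the other family genes and the signalling genes past the threshold, and the 3 genes nearest in pattern. These genes, the lists and the tests were chosen with earlier results of these data known. Genes named as the only called one of a marker list, and *Ephb3* and *Ephb4* by genotype in culture, were chosen after their values were seen. Cultures and cortices with the same number come from the same embryo by the labels, and their deviations from group means had correlations of -0.11 to 0.24 over 18 pairs, with 12 above 0.1. Alternatives were pseudocounts of 0.1 and 5, filters on the mean of 0 or 50, TMM rescaling, quantile normalization, a term for sex, title prefix or embryo as a block, all 24 libraries in 1 fit, and leaving out each library.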

Additional observations from a re-analysis of the deposited data

How the results depend on the processing

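For genotype at E11.5 it was 0 and became 1 (*Epha5*) with no filter on low values and with all 24 libraries in 1 fit, and leaving out a library gave 0 to 1, the 1 being without mutant B. At E14.5 it was 0, and 1 (*Epha5*) by DESeq2. In the 12 cortices it was 1 and became 0 with a term for embryo sex, and leaving out a library gave 0 to 1, with 0 without mutant C or mutant 2. With the embryo number as a replicate block, possible for comparisons within the E14.5 embryos, it was 10 for culture against cortex and 0 between culture times and for both interactions with genotype, and no call of the 10 genes changed. The title prefix as a block changed no call. For culture against cortex it was 10, 8 with no filter on low values and 8 to 10 with a library left out, where 11 of 12 fits lost *Epha7*, *Efna5* or both. *Efnb3* was lost with age in 1 fit of 24 libraries (0.48). Without mutant 1 *Efnb1* was called with age (-0.25).

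Over every estimate of the 10 genes in the 11 comparisons, 25 of 1080 alternative values and 52 of 1080 values with a library left out changed sign, none of them past the threshold. Among the differences given above, a term for sex turned that of *Efnb1* at E11.5 to 0.00108 and that of *Ephb2* at E14.5 to -0.0116, and leaving out a library moved the former between -0.17 and 0.018. The cause was not tested. The lowest depth, 4732781 reads, and the others gave at least 66 reads for each of the 10 genes in each of 23 libraries.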
